A study of Mesocricetus auratus with 21 samples.

Results

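Of the 22285 genes in the testis count table, 200 genes had their highest levels at 9 days postpartum (d.p.p.) in wild-type golden hamsters. The 11 wild-type libraries chose them. For each gene, L was the log2 ratio of the lowest 9 d.p.p. level to the highest level at any other age, in CPM (counts per 1000000 counts of the library), with 1 CPM added to each. Genes with at least 10 CPM in every wild-type 9 d.p.p. library were eligible (8637 genes), 487 of the eligible genes had L above 0, and the 200 with the highest L were kept. Their peak in wild type therefore came from the choice and was not tested. L ran from 0.30 to 6.94, and 96 members had L of at least 1. The member ranked 200 had 14.8 CPM in its lowest 9 d.p.p. library and 11.8 CPM in its highest other wild-type library. The gene ranked 201, just outside, had 106 and 86.3 CPM.

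Testes of wild-type (WT) and Mov10l1 knockout (KO) golden hamsters were profiled by RNA-seq of ribosomal RNA-depleted total RNA at 0, 9, 13 and 21 d.p.p. and in adults. The KO animals lacked exon 20 of Mov10l1 on both alleles, which was removed with CRISPR-Cas9, and the allele came from 1 founder. Each genotype and age had 2 libraries, except for 3 WT libraries at 9 d.p.p. Adults were 65 and 23 weeks of age in WT and 63 and 53 weeks in KO. Libraries from 0 and 9 d.p.p. were read single-end and those from the later ages paired-end, so that age and read layout cannot be told apart between 9 d.p.p. and the later ages. Both KO libraries of 9 d.p.p. carried the same code in the labels, which was read as 1 animal, and were summed into 1 sample for testing.

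MOV10L1 is an RNA helicase needed to make piRNAs, small RNAs of the germ line that silence retrotransposons. In the early postnatal rodent testis, gonocytes move to the base of the seminiferous cords and become spermatogonia, while Sertoli cells, the somatic cells that surround and nourish them, still divide. Sertoli cells later stop dividing and mature, and germ cells enter meiosis. Counts from a whole testis sum over all of these cells, so that fewer cells of a type and less RNA per cell cannot be told apart.

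Library totals ranged from 3550217 counts (WT 13 d.p.p. replicate 2) to 77527451 counts (WT 9 d.p.p. replicate 1). Mov10l1 itself lay below WT at every age in KO, at 0.0784 to 15.3 CPM against 18.9 to 172 CPM, and its highest KO values were those of 0 d.p.p. At 9 d.p.p. the KO libraries had 1.45 CPM each. Germ cell markers were mostly lower in KO at 9 than at 0 d.p.p. Of 11 such markers, 10 were lower at 9 than at 0 d.p.p. (edgeR, adjusted p below 0.01) and none was higher, also at an unadjusted p below 0.05. Over all genes tested, 15.9% were lower and 19.5% were higher. The markers were matched through the study's tables of genes that differ between genotypes. Those tables rest in part on these KO libraries, so that the markers are not independent evidence. Their summed level was 97.1 and 108 CPM in the 9 d.p.p. libraries against 2058 and 1721 CPM at 0 d.p.p. In WT the same sum was 1706 and 1384 CPM at 0 d.p.p. and 227 to 276 CPM at 9 d.p.p., so that it fell between these ages in both genotypes. No germ cell marker was among the 200 members.

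The list held a large part of the RNA counted at 9 d.p.p. The 200 genes took 9.02%, 9.08% and 10.2% of all counts in the WT libraries of that age, and 0.665% to 2.69% in the other WT libraries. In KO, which had no part in the choice, they took 7.85% and 9.66% at 9 d.p.p. Their KO shares were 1.66% and 1.29% at birth, 2.05% and 2.68% at 13 d.p.p., 3.64% and 2.40% by 21 d.p.p., and 1.66% and 1.41% in adults. Both KO 9 d.p.p. libraries thus lay above every other KO library, and the nearest was replicate 1 of 21 d.p.p. A few genes carried most of the sum. The 5 most abundant members held 58.1% of the members' WT 9 d.p.p. level, and 12 members exceeded 1000 CPM there, whereas 101 members averaged below 50 CPM.

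**Figure D1:**
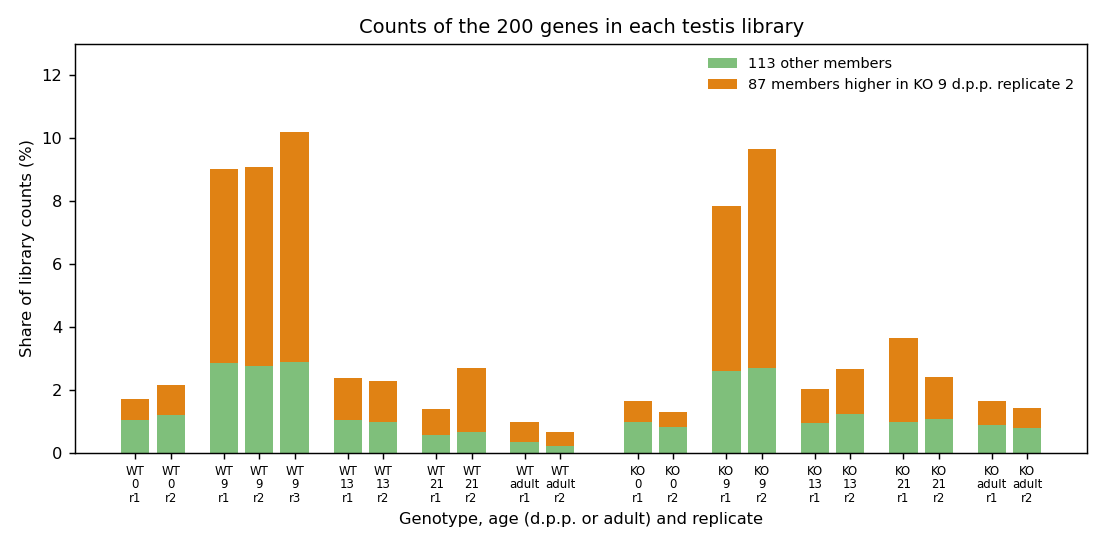
Share of all library counts (%) taken by the 200 genes in each WT and KO library, by age and replicate, with the bars split into 87 members that were higher in KO 9 d.p.p. replicate 2 than in replicate 1 and the other 113. The bars of 9 d.p.p. stand between 7.85% and 10.2% in both genotypes, and the 113 other members take 2.6% to 2.89% of the counts at that age.

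The peak at 9 d.p.p. was also present in the KO testis. For 175 of the 200 members (87.5%), both KO 9 d.p.p. libraries lay above all 8 other KO libraries, whereas this held for 12% of the 8637 eligible genes. On the same scale as L, the KO values had a median of 0.92 and ran from -2.51 to 6.68, and 95 members reached 1. The share of the eligible genes that reached 1 is not given here. When the rule was applied to the 10 KO libraries in place of the WT libraries, 1065 genes had L above 0. The 200 highest were kept, and 119 of them were members, which is 59.5% of each list. Members are 200 of the 8637 eligible genes. Of the 100 members with the highest L in WT, 82 were on the KO list.

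Lists chosen by the same rule for the other ages differed widely in this respect. At 0 d.p.p., 197 of 200 genes had both KO libraries of that age above all other KO libraries, beside 54.0% of the genes eligible at that age. At 13 d.p.p. this held for 58 of 200 genes (background 4.92%), at 21 d.p.p. for 1 of 146 genes (background 1.04%) and in adults for 18 of 200 genes (background 13.9%). The day-9 list thus kept its peak in KO for a far higher share of genes than the lists of the 3 later ages, by these counts. The lists share libraries, so that the difference between them was not tested. For the day-9 list, both KO libraries of its own age carried 1 animal code. At each other age, the KO libraries carried different codes, so that the counts are not like for like. The 3 later ages were also the ages read paired-end, so that age and read layout cannot be told apart in this contrast. The part of the animal codes and of read layout in the difference was not tested.

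**Figure D2:**
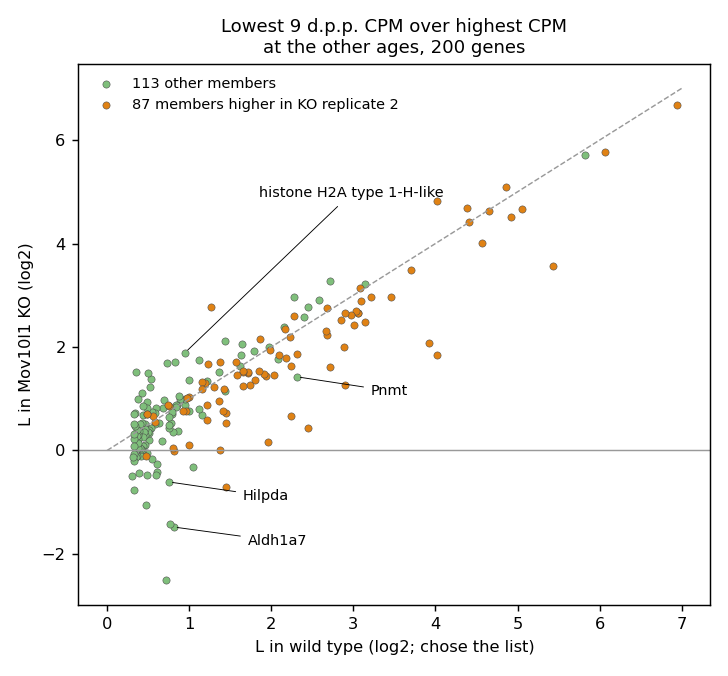
L of each of the 200 genes in WT (x axis, the values that chose the list) against the same quantity from the KO libraries (y axis), both on the log2 scale, with the dashed line marking equal values. Most genes lie above 0 on the y axis (175 of 200), and Aldh1a7 and Hilpda are among the 25 below it.

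The KO libraries alone gave a test of the age differences, fitted over 16966 genes with edgeR at an adjusted p below 0.01. Against KO testes of 0 d.p.p., which had the same read layout, 194 of the 200 members were higher at 9 d.p.p. and none was lower. Over all genes 19.5% were higher and 15.9% were lower. The median log2 change of the members was 2.64, beside -0.05 for all genes tested. Against 13 d.p.p., 111 members were higher and none was lower, with 3.31% and 1.56% of all genes called in these directions. Against 21 d.p.p., 108 members were higher and none was lower, with 12.3% and 9.43% of all genes called. Against adults, 153 members were higher and 5 were lower, with 20.3% and 19.4% of all genes called.

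Of the members, 91 were higher at 9 d.p.p. than at each of the other 4 KO ages, a pattern that 1.20% of all genes showed. A single member was called higher against no other age. The median log2 changes of the members were 2.49 against 13 d.p.p., 1.82 against 21 d.p.p. and 3.23 against adults, and the medians over all genes were within 0.02 of 0. All 200 members passed the low-count filter, also when it was set without the 9 d.p.p. libraries. An unadjusted p below 0.05 was reached by 200, 162, 147 and 178 members in the 4 comparisons, of which 0, 0, 7 and 11 were lower at 9 d.p.p., and DESeq2 called 0, 0, 1 and 6 members lower. The spread in these fits came from the 4 ages with 2 animals each, and the summed KO 9 d.p.p. sample was assumed to vary like them. With column totals in place of TMM factors, which shifted the median of all genes against 0 d.p.p. to -0.59, 161 members were higher than at 0 d.p.p. and none was lower. Over all genes, that scaling gave 1136 higher and 3930 lower, where TMM gave 3310 and 2702.

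The members with the steepest peaks had no name in the sources used here. ENSMAUG00000006046, which had the highest L, was at 195, 228 and 261 CPM in the WT 9 d.p.p. libraries and at 158 and 231 CPM in the KO libraries of that age. All other libraries had at most 0.594 CPM of it, so that no value outside 9 d.p.p. came near. ENSMAUG00000005112 followed with 439, 492 and 439 CPM in WT and 346 and 577 CPM in KO at 9 d.p.p. Its levels at the other ages were 0.611 to 5.57 CPM over both genotypes, far below every library of 9 d.p.p.

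Both of these genes differed between the 2 KO libraries of 9 d.p.p., although those shared 1 animal code, and so did many other members. Replicate 2 exceeded replicate 1 by more than 0.3 on the log2 scale for 87 of the 200 members (43.5%) and for 1.41% of the 8637 eligible genes. No member was lower in replicate 2 by as much, beside 0.961% of the eligible genes. Members made up 71.3% of the 122 eligible genes past that difference. The limit was set after the values were seen, where the members' distribution had its gap, and the cause of the difference was not tested. The median log2 ratio of replicate 2 to replicate 1 was 0.13 over the members and -0.01 over the eligible genes, of which 80% lay between -0.14 and 0.09.

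**Figure D3:**
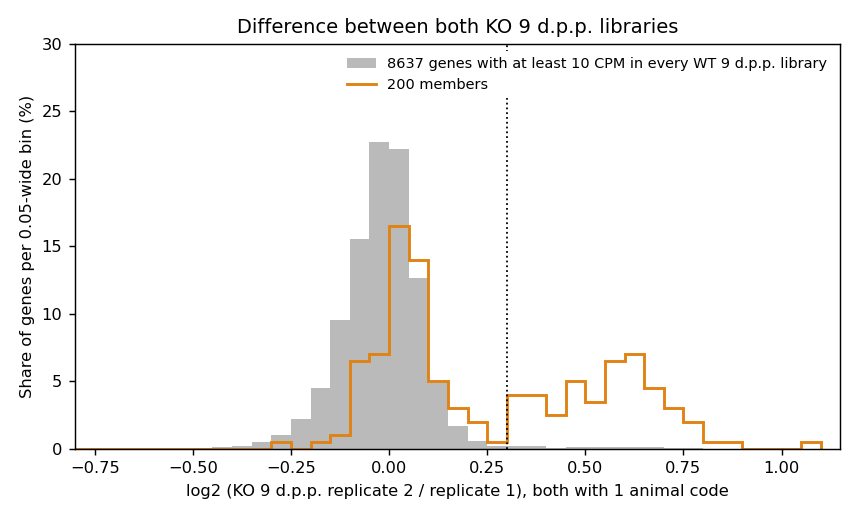
Share of genes (%) by the log2 ratio of KO 9 d.p.p. replicate 2 to replicate 1, in bins of 0.05, for the 200 members (line) and the 8637 eligible genes (filled), with the dotted line at 0.3. The members form a group around 0 like the other genes and a separate group of 87 to the right of the dotted line.

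The 87 members with this difference and the other 113 were unlike in further ways. The 87 had a median L of 1.96 against 0.58, and 75 of them were among the 100 members with the highest L. None of the 87 had a name, and all 10 named members were among the 113. Names came from tables of genes that differ between genotypes, which rest in part on these KO libraries. This contrast in names is therefore not independent of the split. Together the 87 took 6.18% to 7.31% of the WT counts at 9 d.p.p., and 5.24% and 6.96% in the KO replicates 1 and 2. The 113 took 2.75% to 2.89% in WT and 2.6% and 2.7% in KO, so that their sum hardly differed between the KO libraries. The split was made on the ratio of these KO libraries, so that this contrast between replicates follows from it. The peak in KO held in both subsets: 84 of the 87 and 91 of the 113 had both KO 9 d.p.p. libraries above all other KO libraries. In the fits, 84 of the 87 and 110 of the 113 were higher at 9 than at 0 d.p.p., and 68 of the 87 and 43 of the 113 were higher at 9 than at 13 d.p.p. Against 21 d.p.p. these counts were 56 and 52, and against adults they were 81 and 72.

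Of the members, 28 (14%) were below 1 CPM in every paired-end library of both genotypes. This held for 33 (0.382%) of the 8637 eligible genes, members included. The rule chose genes for low WT levels at the ages read paired-end, so that the count of members is a description of the choice. Of these 28, 16 belonged to the 87 and 12 to the 113. Reads that fit several genes were split between them by the authors' counting, which leaves counts that are not whole numbers. Such counts were seen in WT 9 d.p.p. replicate 1 for 48.5% of the members and for 17.4% of the eligible genes, at a tolerance of 1e-06 counts. For 10 members, the levels in all 5 libraries of 9 d.p.p. were within 1% of those of another member. These 10 all had split counts and cannot be told apart from their partners, and 33 members stood next to another member in the order of the table. Neither near-equal levels nor neighbours were counted over the eligible genes. The part of read layout and of shared reads in the peak was not tested.

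Names could be given to 10 members, from tables of genes that differ between genotypes, so the named members are not a random draw. The histones, around which DNA is wound, gave 3 of them. These 3 histones, Id3, Bcam and dynein light chain 1 were in the study's table for 9 d.p.p., which rests in part on these libraries. Their differences between genotypes at 9 d.p.p. are thus tied to the source of their names and are not independent evidence. Histone H4 (ENSMAUG00000017348) had 172, 203 and 233 CPM in WT and 227 and 242 CPM in KO at 9 d.p.p. At 0 d.p.p. it had 84.3 and 96.6 CPM in WT and 68.2 and 62.2 CPM in KO, and in adults 16.1 and 7.76 CPM in WT and 14.5 and 8.64 CPM in KO. The 9 d.p.p. libraries stood above all other ages in both genotypes. In KO, the log2 change was 2.38 ± 0.27 (SE) against 0 d.p.p. (edgeR adjusted p = 6.51e-05) and 3.33 ± 0.27 against 21 d.p.p. (edgeR adjusted p = 1.01e-05). H2bu2 (ENSMAUG00000010540), a histone H2B, had 115, 118 and 133 CPM in WT and 154 and 148 CPM in KO at 9 d.p.p., with no overlap between genotypes. It was lower in KO newborns, at 43.2 and 39.2 CPM against 60.4 and 72.0 CPM, and also at 21 d.p.p., at 12.2 and 18.9 CPM against 61.1 and 51.3 CPM. Histone H2A type 1-H-like (ENSMAUG00000014301) had 34.1, 37.1 and 41.8 CPM in WT and 44.6 and 45.3 CPM in KO at 9 d.p.p. At 21 d.p.p. it had 12.8 and 5.81 CPM in WT and at most 1.75 CPM in KO. All 3 histone members were higher at 9 d.p.p. than at every other KO age, with log2 changes from 1.08 ± 0.17 for H2bu2 against 13 d.p.p. (edgeR adjusted p = 0.00259) to 4.71 ± 0.25 for histone H2A type 1-H-like against adults (edgeR adjusted p = 2.39e-07). With column totals in place of TMM factors, H2bu2 did not pass the test against 13 d.p.p. (1.16). H4 and H2A type 1-H-like had split counts, and histone genes are near copies of each other.

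The tables named 27 histone genes in all, a set put together after the values were seen. The tables list genes that differ between genotypes and rest in part on these KO libraries, so that the set is not independent evidence. Of the 27, 3 were members and 9 had L above 0 in WT. Of the 24 that were not members, 23 were eligible. Both KO 9 d.p.p. libraries lay above all other KO libraries for 22 of the 24, all 22 of them eligible. The share over the 8637 eligible genes was 12%. The exceptions were a histone H4 gene (ENSMAUG00000005554), with a KO mean of 447 CPM at 0 d.p.p. and 313 CPM at 9 d.p.p., and histone H3.1 (ENSMAUG00000010700), with a KO mean of 31.2 CPM at 9 d.p.p. and 50.3 CPM in adults. The summed level of the 27 was 10790 and 10778 CPM in KO at 9 d.p.p., 4852 and 4481 CPM at 0 d.p.p., 5927 and 4557 CPM at 13 d.p.p. and 854 to 1403 CPM afterwards. In WT the sum was 7863 to 10142 CPM at 9 d.p.p. and still 8386 and 5829 CPM at 21 d.p.p. The WT libraries of 9 d.p.p. thus overlapped with those of 21 d.p.p. in this sum, and the KO libraries did not. None of the 27 was among the genes that differed by more than 0.3 between the KO 9 d.p.p. libraries, where their log2 ratios were -0.15 to 0.23.

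Inhbb, Id3 and Bcam belong to signalling and adhesion. Inhbb (ENSMAUG00000018944) encodes the beta B subunit of inhibin and activin, which Sertoli cells secrete. It had 346, 337 and 357 CPM in WT and 333 and 348 CPM in KO at 9 d.p.p., and the genotypes overlapped. The WT libraries of 13 d.p.p. had 253 and 261 CPM, below all 9 d.p.p. libraries, whereas in KO it was still at 315 and 312 CPM. Its KO log2 change was 1.69 ± 0.22 against 0 d.p.p. (edgeR adjusted p = 0.000156) and 0.04 ± 0.23 against 13 d.p.p. (edgeR adjusted p = 0.937). At 21 d.p.p. it was lower than at 9 d.p.p., at 58.9 and 47.7 CPM in WT and, unevenly, at 82.5 and 162 CPM in KO. Adults had at most 12.4 CPM in WT and 40.4 to 47.3 CPM in KO. Inhbb was the only member among the marker list genes that could be matched, and most members had no name. The 6 of 19 Sertoli cell markers that could be matched, Inhbb among them, were all higher at 9 than at 0 d.p.p. in KO. Of these 6, none was higher at 9 than at 13 d.p.p. in the edgeR fit, also at an unadjusted p below 0.05, and 3 were lower. Over all genes tested, 19.5% were higher than at 0 d.p.p. Against 13 d.p.p., 3.31% were higher and 1.56% were lower. These markers too were matched through the tables of genes that differ between genotypes, so that they are not a random draw.

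Id3 (ENSMAUG00000020929) encodes a helix-loop-helix protein that binds transcription factors and keeps them off DNA. At 9 d.p.p. it had 42.9, 36.8 and 37.8 CPM in WT and 28.7 and 29.9 CPM in KO, so that every KO library was below every WT library. At 13 d.p.p. the order was the opposite, with 15.2 and 13.8 CPM in WT and 19.3 and 21.7 CPM in KO, and at 21 d.p.p. WT had fallen to 3.36 and 3.78 CPM while KO was at 16.9 and 21.1 CPM. Bcam (ENSMAUG00000017056), a cell surface receptor for laminin, had 176, 191 and 163 CPM in WT and 136 and 142 CPM in KO at 9 d.p.p. and did not overlap either. The 13 d.p.p. libraries had 111 and 101 CPM in WT and 122 and 148 CPM in KO. In KO, both genes were higher at 9 than at 0 d.p.p., with log2 changes of 1.22 ± 0.23 for Id3 (edgeR adjusted p = 0.00129) and 1.31 ± 0.24 for Bcam (edgeR adjusted p = 0.00127). Against 13 d.p.p. the changes were 0.42 ± 0.23 and -0.05 ± 0.25, and neither passed the test (edgeR adjusted p = 0.262 and 0.925). Without KO 0 d.p.p. replicate 1 the call for Id3 was lost, without replicate 2 that for Bcam, and with column totals both.

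**Figure D4:**
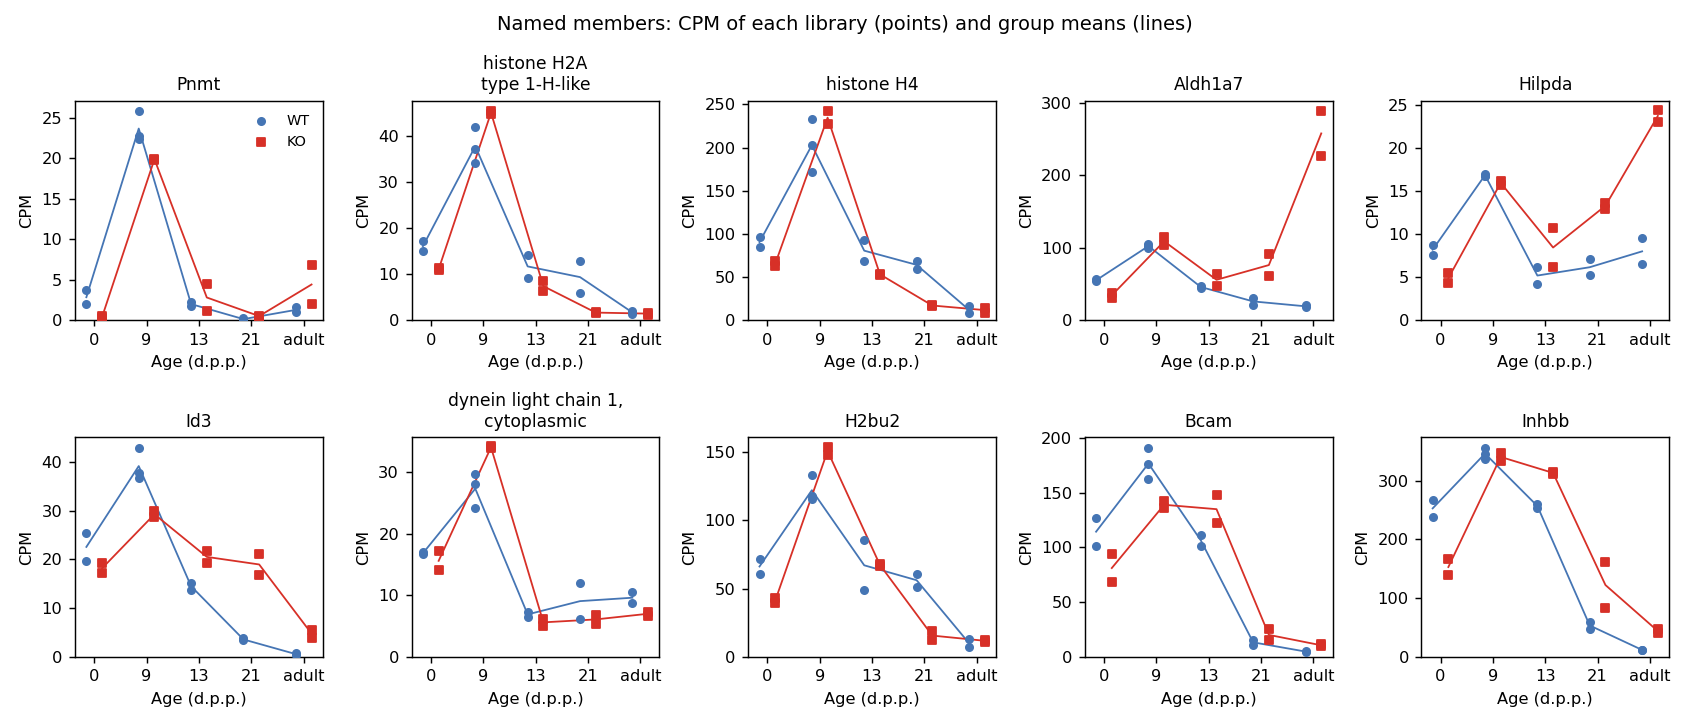
CPM of the 10 named members in each library (points) with group means (lines), by age, in WT (circles) and KO (squares), on linear axes that start at 0. Each WT course peaks at 9 d.p.p. by the choice of the list; in KO, Aldh1a7 and Hilpda are highest in adults, and Inhbb and Bcam stay near their 9 d.p.p. level at 13 d.p.p.

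Pnmt, Aldh1a7 and Hilpda are metabolic genes. Pnmt (ENSMAUG00000002767), the enzyme that makes adrenaline from noradrenaline, had the highest L of the named members (2.31). It had 25.8, 22.8 and 22.4 CPM in WT and 19.9 and 19.8 CPM in KO at 9 d.p.p. and at most 3.71 CPM in WT and 6.76 CPM in KO elsewhere. Its KO log2 change against 0 d.p.p. was 6.19 ± 0.75 (edgeR adjusted p = 9.98e-05), and it did not pass the test against 13 d.p.p. (2.89 ± 0.67, edgeR adjusted p = 0.0184) or adults (1.88 ± 0.63, edgeR adjusted p = 0.027). Both calls turned on the setting: Pnmt passed against both ages with the KO 9 d.p.p. libraries as 2 samples, with column totals or with no filter on low counts, and also without KO 13 d.p.p. replicate 1, where the change against 13 d.p.p. was 3.96. Without KO adult replicate 2 it passed against adults at 2.93. Pnmt and Aldh1a7 had split counts.

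Aldh1a7 (ENSMAUG00000009683), an aldehyde dehydrogenase, had 99.6, 105 and 102 CPM in WT and 114 and 103 CPM in KO at 9 d.p.p. In WT it then fell to 20.2 and 17.9 CPM in adults. In KO adults it stood at 226 and 289 CPM, above every other library of either genotype, and the KO log2 change of 9 d.p.p. against adults was -1.55 ± 0.22 (edgeR adjusted p = 0.000148). It was the only named gene among the 5 members that were lower at 9 d.p.p. than in KO adults. Hilpda (ENSMAUG00000007190), a protein of lipid droplets that is induced by low oxygen, had 16.7, 16.8 and 17.1 CPM in WT and 15.7 and 16.2 CPM in KO at 9 d.p.p. KO adults had 23.0 and 24.5 CPM and WT adults 9.51 and 6.49 CPM, but the KO difference between 9 d.p.p. and adults did not pass the test (-0.88 ± 0.32, edgeR adjusted p = 0.0396). It passed with the KO 9 d.p.p. libraries as 2 samples, with no filter on low counts, and without either KO 13 d.p.p. library. Dynein light chain 1, cytoplasmic (ENSMAUG00000008734), a small subunit of a microtubule motor, had 24.1, 28.0 and 29.7 CPM in WT and 33.9 and 34.1 CPM in KO at 9 d.p.p., with 14.0 to 17.1 CPM in both genotypes at 0 d.p.p. and lower values later. It was higher at 9 d.p.p. than at each other KO age, with log2 changes of 1.66 ± 0.20 to 2.53 ± 0.21 (edgeR adjusted p from 1.43e-05 to 8.89e-05).

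KO and WT were then compared at each age. All WT libraries took part in choosing the members, so these values are a description and no test was run. At 9 d.p.p., 44 members had every KO library below every WT library, 18 had every KO library above, and 138 overlapped. Both KO libraries of 9 d.p.p. carry 1 animal code, here and in the values of the named members. The shares over the 8637 eligible genes were 15.3% below and 23.0% above. The log2 ratio of mean KO to mean WT level (1 CPM added) had a median of -0.10 over the members and 0.01 over the eligible genes, and no member was beyond -0.53 or 0.31. These counts turned on the scaling and on single libraries. With TMM-scaled totals 16 members were below and 28 above, which turned the balance round. Without KO replicate 1, 70 members were above and the median was 0.02, and without replicate 2, 146 were below and the median was -0.23. Leaving out a library can only keep or raise the counts of members without overlap. The shares over the eligible genes under these settings are not given here. For the 87 members that differed between these libraries, replicate 1 alone had a median log2 ratio to WT of -0.42 and replicate 2 of 0.09, whereas for the other 113 both were near -0.1 (-0.08 and -0.05). The gap between replicates in the 87, and its absence in the 113, follows from the split.

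The members with the lowest KO to WT ratio at 9 d.p.p. had no name. ENSMAUG00000007587 had 104, 119 and 101 CPM in WT and 61.7 and 87.1 CPM in KO. It also stayed at 32.7 and 41.2 CPM in WT at 13 d.p.p., where KO had 4.02 and 3.04 CPM. ENSMAUG00000007611 had 25.5, 23.2 and 29.1 CPM in WT and 17.2 and 18.5 CPM in KO at 9 d.p.p., and its 13 d.p.p. libraries in KO had 24.2 and 14.0 CPM against 16.3 and 9.86 CPM in WT. Both genes had every KO library below every WT library at 9 d.p.p., and later, at 13 d.p.p., this held for the former alone.

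At 0 d.p.p., 113 members had every KO library below every WT library and 6 had every KO library above, where the background was 29.3% and 24.8%. The median log2 ratio was -0.28, beside -0.01 over the eligible genes. Both KO libraries of that age share a first part of the animal code that the WT libraries lack. Genotype and that part of the code cannot be told apart there. Leaving out a library of that age gave 118 to 174 below and 10 to 26 above. The count below was highest without KO replicate 1 and the count above without KO replicate 2. At every age, leaving out a library can only keep or raise such counts. The shares over the eligible genes without that library are not given here. At 13 d.p.p. the counts were 23 below and 31 above (background 24.2% and 18.9%) with a median of -0.01. Leaving out any 1 of the 4 libraries gave 33 to 79 below and 43 to 85 above. The count below was highest without KO replicate 2 and the count above without KO replicate 1. Replicates 1 of WT and KO share a first part of the code at 13 d.p.p., and so do replicates 2. This pairing was not used. At 21 d.p.p. they were 23 below and 87 above (background 24.9% and 27.7%) with a median of 0.39, beside -0.05. In adults they were 16 below and 138 above (background 33.2% and 59.8%), and the median of 0.60 was close to the 0.61 of the eligible genes. The median at 21 d.p.p. was 0.20 without WT replicate 1, with 44 members below, and 0.64 without WT replicate 2, with 35 below and 141 above, and 131 were above without KO replicate 2. In adults, 35 were below without WT replicate 2 and 28 without KO replicate 1. In WT, the age with the next highest mean was 0 d.p.p. for 123 members, 13 d.p.p. for 54, 21 d.p.p. for 21 and adult for 2.

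**Figure D5:**
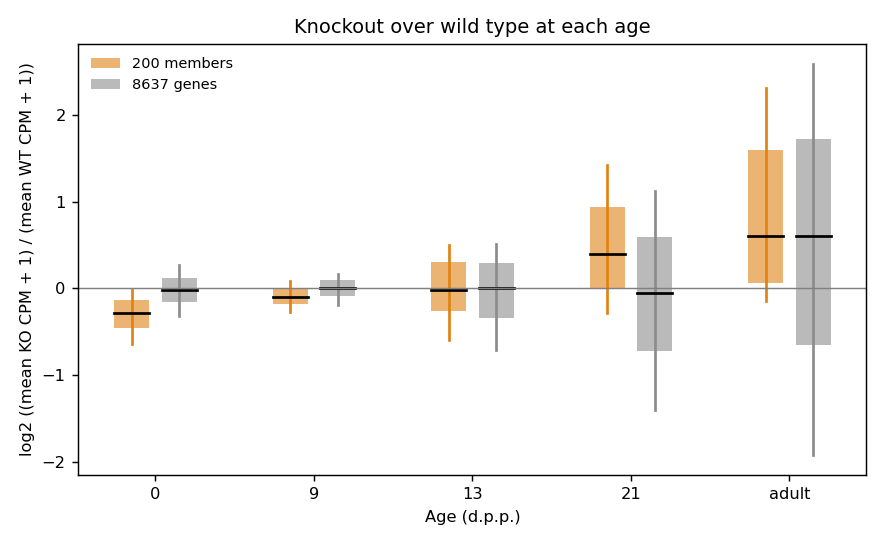
Log2 ratio of the mean KO to the mean WT level (1 CPM added to each) at each age for the 200 members and the 8637 eligible genes, with the median (black line), the middle 50% (box) and the 10% to 90% range (vertical line). The members' median is -0.28 at 0 d.p.p., near 0 at 9 and 13 d.p.p., and 0.39 and 0.60 at 21 d.p.p. and in adults, where the eligible genes have -0.05 and 0.61.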

How the data were processed

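By the study's methods, whole testis RNA was depleted of ribosomal RNA, whereas the labels give polyA RNA as the molecule. The authors mapped reads with STAR 2.7.3a and deposited estimated counts per Ensembl gene made with featureCounts 2.0.0. Per the study's methods, a read matching several genes or places was split between them, so counts can be fractional. The 21 columns were assigned to WT and KO groups by the labels, and CPM were taken on column totals. Counts were rounded and tested in edgeR 4.0.16 (R 4.3.3; TMM, filterByExpr, quasi-likelihood test, Benjamini-Hochberg over all genes tested, adjusted p below 0.01) on the 10 KO libraries, with both KO 9 d.p.p. libraries summed, which left 4 residual degrees of freedom. Standard errors were derived from the log2 change and its F statistic. The scripts were tested on simulated data. Alternatives included DESeq2 1.42.0. Apart from that pair, every library carries its own animal code in the labels. Some codes share their first part, and the labels do not say what it stands for. Both KO libraries of 0 d.p.p. share a first part that neither WT library of that age carries. The KO libraries of 9 d.p.p. share theirs with WT 9 d.p.p. replicate 3, which took part in choosing the list. At 13 d.p.p., replicates 1 of WT and KO share theirs, and so do replicates 2. At 21 d.p.p., KO replicate 1 shares its first part with WT replicate 2. Names were given to every member named in the study's tables of differing genes, and, without names, to the 2 members with the highest L and the 2 with the lowest KO to WT ratio at 9 d.p.p. Of 16 marker lists with 255 entries, 1 (germ cell markers) could be matched for at least 80% of its genes. Of the entries that could be matched, 1 (Inhbb) was a member. The members and lists were chosen with earlier results of these data known.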

Additional observations from a re-analysis of the deposited data

Results flagged for a closer look

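Aldh1a7 and Hilpda differed between the genotypes in their course from 9 d.p.p. to adults: every WT library was higher at 9 d.p.p. than in adults, and every KO library was lower. The log2 ratio of the 9 d.p.p. to the adult mean in KO (1 CPM added) was -1.24 for Aldh1a7 and -0.54 for Hilpda. The difference between the genotypes was not tested, since the WT libraries chose both genes for their peak at 9 d.p.p.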

How the results depend on the processing

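The members called higher at 9 d.p.p. in KO stayed within 1.5 times the reported count under every setting run, and leaving out each KO library in turn gave 157 to 199 members against 0 d.p.p., 103 to 124 against 13 d.p.p., 102 to 123 against 21 d.p.p. and 126 to 162 against adults. The limits of the data include the single KO animal code of 9 d.p.p. and the read layouts. Ribosomal RNA was removed with Ribo-Zero or QIAseq FastSelect, and the methods text does not say which libraries had which kit. The part of the kit in the peak was not tested. When the list was chosen without 1 of the WT 13 d.p.p. libraries, 163 or 166 of the 200 genes were kept. With TMM-scaled totals 160 of the 200 were kept, and 153 members, not 175, peaked in both KO 9 d.p.p. libraries. The members called lower were less stable. With both KO 9 d.p.p. libraries as 2 samples, 2 members were lower against 21 d.p.p. and 11 against adults, with the replicate block added 2 and 8, and at an adjusted p below 0.05, 2 and 9. Against 21 d.p.p., DESeq2 and the fit without a filter on low counts each called 1 member lower. Leaving out a KO library gave 0 to 2 members lower against 21 d.p.p. and 4 to 8 against adults.

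Counts over all genes, which serve as background, moved more. With 2 samples at 9 d.p.p., 4312 genes were lower against 0 d.p.p., 1406 higher and 1114 lower against 13 d.p.p., and 2897 lower against 21 d.p.p. The replicate block turned these into 4094, 1257, 935 and 2697, and it called 198, 132, 122 and 160 members higher against the 4 ages. Correlations between the replicate numbers' deviations were -0.49 to 0.30 over 10 pairs of ages, so across ages the numbers were taken only to name libraries. At 13 d.p.p. they also mark WT and KO libraries that share a first part of the code. Column totals gave 1136 genes higher against 0 d.p.p., 780 lower against 21 d.p.p. and 1957 lower against adults. Against 13 d.p.p., DESeq2 called 620 genes lower, and the fit with no filter called 1287 higher and 522 lower. At an adjusted p below 0.05 there were 4252 lower against 0 d.p.p., 1409 higher and 866 lower against 13 d.p.p., and 3218 higher and 2824 lower against 21 d.p.p. The single-end KO libraries alone gave 5120 higher and 4827 lower. Leaving out a KO library gave 2048 to 4005 higher and 1454 to 3188 lower against 0 d.p.p., and 295 to 802 higher and 148 to 439 lower against 13 d.p.p.

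Of the named members, signs turned for values near 0 that did not pass the test. Bcam against 13 d.p.p. was 0.043 with column totals and 0.0016 without a filter, and ran from -0.22 to 0.16 when single KO libraries were left out, with the highest value without KO 13 d.p.p. replicate 2. Hilpda against 21 d.p.p. was 0.26 with column totals and ran from -0.43 to 0.040 (the latter without KO 21 d.p.p. replicate 1), and Inhbb against 13 d.p.p. ran from -0.011 (without KO 9 d.p.p. replicate 2) to 0.090. Without KO 21 d.p.p. replicate 1 the Inhbb change against 21 d.p.p. was 0.88 and no longer passed. With column totals Id3 (0.69) and Bcam (0.78) against 0 d.p.p. and H2bu2 (1.16) against 13 d.p.p. no longer passed. The median KO to WT ratio of the members was 0.10 at 13 d.p.p. and 0.69 by 21 d.p.p. with TMM-scaled totals, and 0.76 in adults with 0.5 CPM added. Leaving out a library gave medians of -0.41 to -0.16 at 0 d.p.p., -0.23 to 0.025 at 9 d.p.p., -0.13 to 0.069 at 13 d.p.p., 0.20 to 0.64 at 21 d.p.p. and 0.47 to 0.79 in adults. Limits of 0.2, 0.4 and 0.5 for the difference between the KO 9 d.p.p. libraries, chosen after seeing the data, gave 92, 71 and 56 members. The causes of these shifts were not tested.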
